A study of Mus musculus with 24 samples.

Results

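The Wnt ligands, their receptors and their secreted antagonists form a set of 43 genes among the 63862 genes listed for the mouse lacrimal gland (LG) and for cultured lacrimal gland stem cells (LGSCs). Its members are defined by gene family with no cut on a measured value, though they were chosen with earlier results of these data known. Every symbol was found among the listed genes: 19 Wnt ligands, 12 receptors (Fzd1 to Fzd10 and the co-receptors Lrp5 and Lrp6), 10 secreted antagonists (4 Sfrp genes, Frzb, 4 Dkk genes and Wif1) and 2 genes of ligand processing (Porcn and Wls). Several ligand genes lie in pairs on the GRCm38 build, with Wnt6 and Wnt10a 6.2 kb apart on chromosome 1, Wnt1 and Wnt10b 11.7 kb apart on chromosome 15, and Wnt3a with Wnt9a (16.2 kb) and Wnt3 with Wnt9b (24.3 kb) on chromosome 11.

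Wnt proteins are secreted lipid-modified signals. Porcn attaches the lipid in the producing cell and Wls carries the loaded ligand to the surface. Frizzled (Fzd) proteins bind Wnts on the receiving cell, and with Lrp5 or Lrp6 they protect beta-catenin from degradation, so that it can act with Tcf/Lef factors on target genes. Other branches run through Ror receptors and the planar polarity proteins. Sfrp proteins, Frzb and Wif1 bind Wnts outside the cell, whereas Dkk1, Dkk2 and Dkk4 bind Lrp5 and Lrp6, and Dkk3 is a divergent member of that family. In branching glands such as the LG, Wnt signals pass between the epithelial buds and the surrounding mesenchyme.

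All samples came from mice of the C57BL/6 strain. The groups were adult LG, LG of E17.5 embryos, LG of E19.5 embryos, and LGSCs of passage 2 grown for 5, 7, 10 or 14 days. There were 3 libraries in each group except 2 on day 5, and 1 further library came from passage 10 LGSCs at day 7. LGSCs were dissociated from LG of mice 6-8 weeks old and grown as spheres in a Matrigel matrix without serum. Every LGSC group received the same medium with EGF, FGF10, Y-27632 and Wnt3A protein, so no LGSC library lacked an added Wnt ligand. The labels say neither whether glands were pooled nor whether libraries of a group came from separate animals or cultures, and p-values therefore measure the spread between these libraries only. The age of the adult glands is not labelled.

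The promoters of 5 members that the results below return to are printed first, as the 250 bases before the RefSeq gene start on the mouse GRCm38.p6 build, 5′ to 3′ on the gene's strand. Sfrp2 and Dkk2 are antagonists with far higher levels in embryonic gland. Sfrp5 is the antagonist with the opposite pattern. Wnt6 is a ligand of the embryonic gland whose neighbour Wnt10a (chr1:74791516-74804179, + strand) was high in LGSCs. Fzd7 is shown because its window held a core motif of Tcf/Lef factors. Capitals mark a TATAAA box in Dkk2, which begins at position -32 from the gene start, and in Fzd7 the letters AACAAAG, which begin at position -130 and are the reverse complement of CTTTGTT.
Sfrp2 (chr3:83766071-83766320, + strand): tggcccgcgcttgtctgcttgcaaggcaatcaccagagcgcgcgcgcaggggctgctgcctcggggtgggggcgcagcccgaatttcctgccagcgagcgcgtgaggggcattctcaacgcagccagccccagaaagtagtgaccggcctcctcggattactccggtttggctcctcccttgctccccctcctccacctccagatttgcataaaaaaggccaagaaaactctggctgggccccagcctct
Dkk2 (chr3:132085042-132085291, + strand): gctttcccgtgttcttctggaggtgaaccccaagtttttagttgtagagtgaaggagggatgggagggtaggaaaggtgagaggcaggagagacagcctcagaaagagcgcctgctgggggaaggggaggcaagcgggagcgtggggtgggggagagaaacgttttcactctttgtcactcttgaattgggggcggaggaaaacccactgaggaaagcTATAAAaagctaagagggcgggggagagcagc
Sfrp5 (chr19:42202253-42202502, - strand): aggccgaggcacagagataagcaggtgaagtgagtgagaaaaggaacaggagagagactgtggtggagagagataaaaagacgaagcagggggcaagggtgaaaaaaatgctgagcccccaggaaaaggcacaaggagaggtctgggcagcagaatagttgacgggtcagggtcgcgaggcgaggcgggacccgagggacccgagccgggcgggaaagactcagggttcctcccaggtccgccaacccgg
Wnt6 (chr1:74771642-74771891, + strand): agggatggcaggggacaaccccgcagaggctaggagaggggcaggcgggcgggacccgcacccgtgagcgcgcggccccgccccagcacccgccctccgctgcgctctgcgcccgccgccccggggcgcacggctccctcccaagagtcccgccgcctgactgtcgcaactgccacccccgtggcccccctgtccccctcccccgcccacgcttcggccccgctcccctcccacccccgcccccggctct
Fzd7 (chr1:59481897-59482146, + strand): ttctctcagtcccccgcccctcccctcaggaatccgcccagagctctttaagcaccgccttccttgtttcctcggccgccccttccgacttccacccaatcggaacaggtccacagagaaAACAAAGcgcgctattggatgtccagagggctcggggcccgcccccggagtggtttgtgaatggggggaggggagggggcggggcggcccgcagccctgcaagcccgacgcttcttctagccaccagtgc
None of these windows overlaps an annotated exon. The RefSeq start of Fzd7 lies 277 bases from the gene start in GENCODE M21, and the other 4 starts are the same in both.

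One such window was matched for 28 of the 43 members. The core motif of Tcf/Lef factors was searched on both strands as CTTTGAA and, in the same way, as the variants CTTTGAT as well as CTTTGTA and finally CTTTGTT. At least 1 of these was present in 3 of the 28 (10.7%; Dkk1, Fzd7 and Wnt11) and in 14.8% of all 32851 windows. TATAAA, on both strands, was present in 5 of the 28 (17.9%; Dkk1, Dkk2, Fzd1, Wif1 and Wnt11) and in 12.4% of all windows. The member windows were rich in G and C, with a median of 69.4% against 52.4% over all windows. These are descriptions of letters, and binding was not measured.

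The values were deposited as FPKM (fragments scaled to transcript length and to a library total), which can be compared between genes of different length. Which total was used is not given in the sources used here. Whole reads recovered from them came to 6434734 to 9258020 in the 20 passage 2 and tissue libraries and 25181804 in the passage 10 library. The 10 most abundant genes took 31.3 to 60.4% of reads in adult LG and 5.4 to 8.1% elsewhere, and deposited values were 0.832 to 2.667 times those scaled to a library's own recovered reads, with the highest ratios in adult replicates 1 and 2. Summed FPKM of 8 fibroblast and mesenchyme markers was 4920 to 5890 in embryonic LG, 182 to 368 in adult LG and 0.565 to 5.58 in passage 2 LGSCs. Acinar markers summed to 171000 to 808000 in adult LG and to at most 58.7 in the other libraries of the 20. Both maxima were nearly all Mucl2, at 171000 to 807000 FPKM in adult LG and 58.3 in the library that summed to 58.7. In adult LG Pigr was at 158 to 446 FPKM, and the other acinar markers stayed at or under 6.65. Of the 7 epithelial markers, Epcam and Krt8 were listed at 0 in all 20 libraries, and so was the housekeeping gene Gapdh, while 43.3% of genes with at least 10 FPKM in the passage 10 library were below 0.1 of that value in every one of the 20. A member near 0 there is therefore described only as listed at that value, and the cause was not tested. Shares and ranks by FPKM given below are likewise those of the values as listed. In the passage 10 library, for example, the ligand Wnt7b was at 20.6 FPKM and the receptor Fzd6 at 57.1.

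Replicate 2 of the passage 2 LGSCs stood apart on every culture day. In the 4 replicate 2 libraries Wnt3a was at 3.1 to 6.95 FPKM, Wnt6 at 7.06 to 17.4 and Fzd10 at 14.5 to 31.1. In the other 7 LGSC libraries these genes reached at most 0.0426, 0.494 and 3.47 FPKM. Wnt10a and Wnt5a were also higher in replicate 2 than in the other libraries of each day, while Fzd1 and Dkk2 were lower. For members tested in both fits, results at day 7 that change without it, and the slopes over days, are given both ways. The other pathway genes named below were not refitted without it.

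Of the 43 members, 19 had a mean of at least 5 FPKM in at least 1 of the 7 groups, 5 reached 1 to 5 FPKM and 19 stayed under 1 FPKM in every group. The 19 under 1 FPKM were Wnt1, Wnt3, Wnt5b, Wnt7a, Wnt7b, Wnt8a, Wnt8b, Wnt9a, Wnt9b, Wnt16, Fzd5, Fzd6, Lrp5, Lrp6, Dkk1, Dkk3, Dkk4, Wif1 and Porcn. The highest single value among them was 1.65 FPKM, for Wnt7a in a replicate 2 library. Both co-receptors belong to this class, so the Lrp arm of the pathway could hardly be followed in these values. The exons of 6 members overlap those of a gene on the opposite strand, namely Wnt5a, Wnt7b, Wnt11, Fzd5, Fzd6 and Sfrp2, and since the strand setting of the counting is not given in the sources used here, reads of such pairs cannot be told apart.

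**Figure D1:**
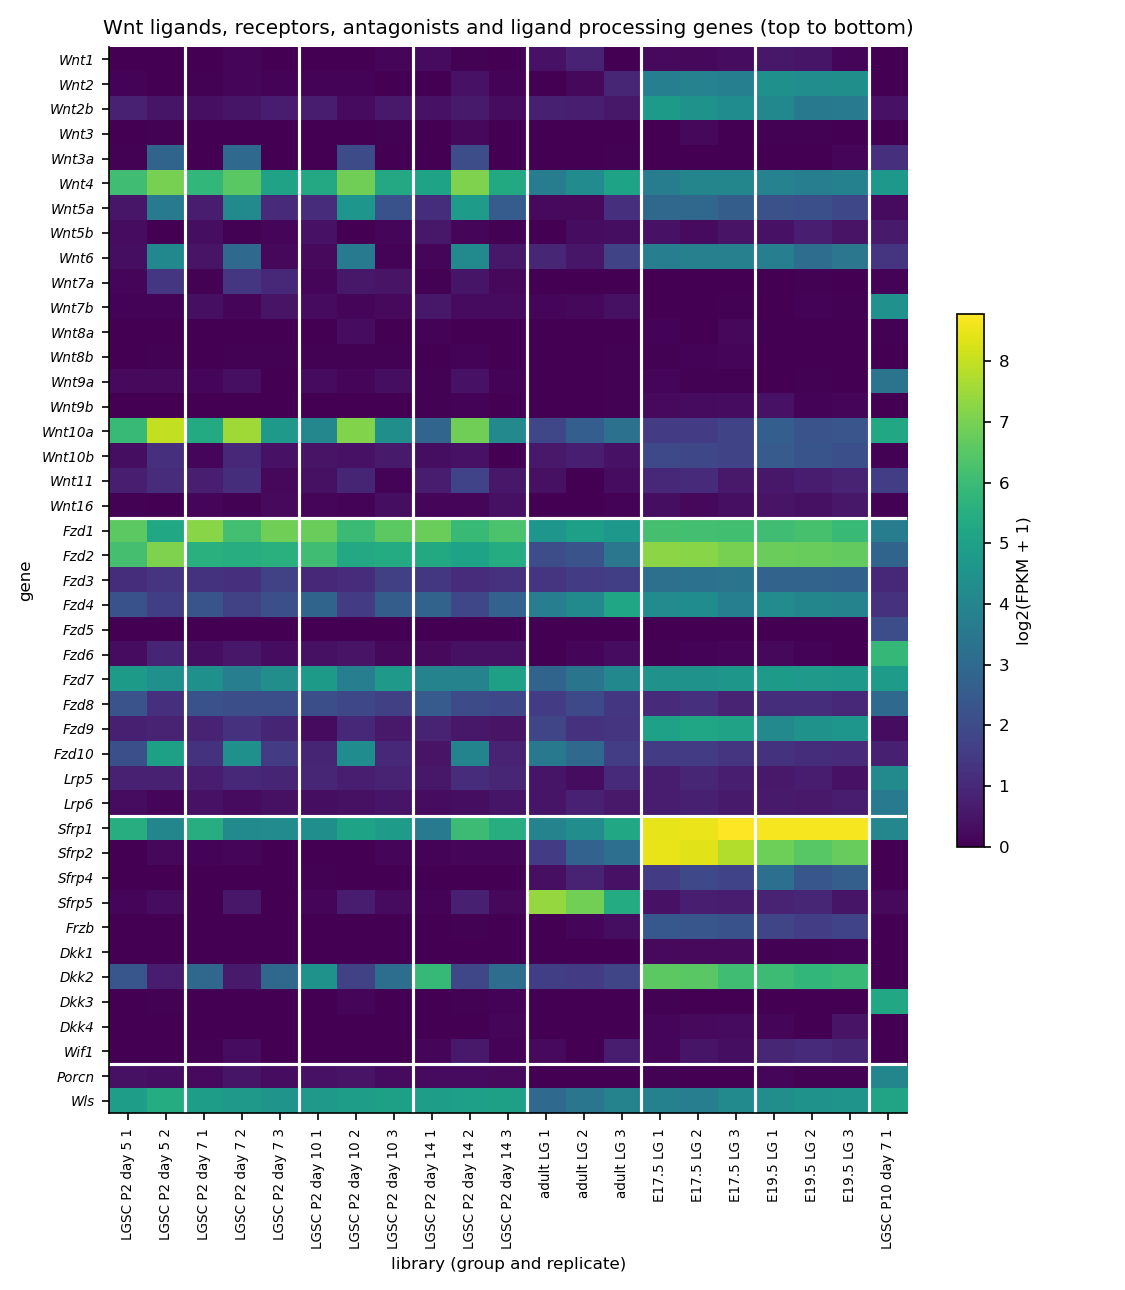
Level of each of the 43 members (rows, by role) in the 20 passage 2 and tissue libraries and the passage 10 library (columns), as log2(FPKM + 1). By group mean, Sfrp1, Sfrp2, Dkk2 and Fzd2 are highest in embryonic LG, Sfrp5 in adult LG, and Wnt4 and Wnt10a in passage 2 LGSCs.

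The first comparison asked which members differed between the growing and the mature gland. Embryonic LG held far more transcript of the ligands Wnt2, Wnt2b, Wnt5a and Wnt6, of the receptors Fzd2 and Fzd9, and of the antagonists Sfrp1, Sfrp2 and Dkk2, whereas adult LG held more Sfrp5. Of the 43 members, 25 passed the filter of a mean of 0.5 FPKM over the 9 tissue libraries. At E17.5, 16 were higher than in adult LG and 4 lower at an adjusted p under 0.05 (limma, Benjamini-Hochberg over all genes), where 29.1% of all genes tested were called higher and 24.9% lower. At E19.5, 17 were higher and 3 lower, beside 30.3% and 23.9% of all genes. The median log2 difference of the tested members was 1.29 at E17.5 and 1.34 at E19.5, beside 0.05 and 0.09 over all genes. The members that pass such a filter include genes that pass it through the group in which they are high, so these shares describe the tested members only. Both comparisons use the same adult libraries. Where groups are said below not to overlap, the share of all genes without overlap was not computed.

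By role, 6 of the 8 tested ligands rose at E17.5 and 1 fell. Wnt2, which in the lung marks early mesenchyme, was at 12.7, 13.7 and 12.9 FPKM at E17.5 and at 20.4, 18.8 and 19.7 at E19.5, against 0, 0.14 and 0.93 in adult LG. The difference from adult LG was 3.44 ± 0.23 (SE) at E17.5 and 3.99 ± 0.23 at E19.5 on the log2(FPKM + 1) scale, which understates the change of low genes (limma adjusted p 7.4e-06 and 4.0e-06). Wnt2b, a close paralogue that also acts through beta-catenin, was at 26.3, 21.5 and 18.1 FPKM at E17.5 and at 16.2, 10.6 and 11.6 at E19.5, against 0.691, 0.676 and 0.468 in adult LG. Its mean was thus 35.9-fold higher at E17.5 and 20.9-fold higher at E19.5 (log2 difference 3.82 ± 0.20 and 3.08 ± 0.20, limma adjusted p 1.8e-06 and 7.0e-06). No embryonic library overlapped an adult one for either gene.

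Wnt5a, the main ligand of the Ror branch, and Wnt6, an epithelial ligand in many organs, followed the same direction. Wnt5a was at 6.79, 6.6 and 5.02 FPKM at E17.5, 3.49, 3.44 and 2.72 at E19.5, and 0.159, 0.161 and 1.34 in adult LG (log2 difference 2.27 ± 0.28 and 1.52 ± 0.28, limma adjusted p 1.9e-04 and 0.00186). Wnt6 was at 12.4, 13.2 and 13.1 FPKM at E17.5, 12.6, 7.86 and 10.2 at E19.5, and 0.946, 0.432 and 2.45 in adult LG (2.71 ± 0.30 and 2.38 ± 0.30, limma adjusted p 1.3e-04 and 2.8e-04). Both therefore stayed above every adult library at both stages. Fitted together with the LGSC libraries, where both genes differ widely between replicates, neither passed the threshold at either stage (limma adjusted p 0.0848 and 0.25 for Wnt5a, 0.0598 and 0.0959 for Wnt6). The weaker ligands Wnt10b and Wnt11 also rose. Wnt10b was at 2.52 to 2.81 FPKM at E17.5 and 3.39 to 4.7 at E19.5 against 0.337 to 0.676 in adult LG (1.29 ± 0.15 and 1.72 ± 0.15, limma adjusted p 1.5e-04 and 3.6e-05). Wnt11 rested on 17 to 42 reads a library in embryonic LG and on 0 to 7 in adult LG (0.65 ± 0.17 and 0.48 ± 0.17, limma adjusted p 0.0123 and 0.0455).

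Wnt4 and Wnt10a, which both act in ductal and skin epithelia, did not follow the other ligands. Wnt4 was at 12.2, 17.8 and 33.5 FPKM in adult LG, 12.3, 15 and 15.5 at E17.5, and 13.9, 12.4 and 13.6 at E19.5, and the groups overlapped (limma adjusted p 0.273 and 0.184). Wnt10a was at 2.69, 5.24 and 8.71 FPKM in adult LG, 1.87, 1.98 and 2.48 at E17.5, and 5.14, 3.79 and 4.03 at E19.5. It was lower than in adult LG at E17.5 by -0.97 ± 0.31 (limma adjusted p 0.0284) and did not pass the threshold at E19.5 (-0.20 ± 0.31, limma adjusted p 0.617). The E17.5 difference was -0.26 under scaling to recovered reads (0.653) and was not called in the fit of all 20 libraries (0.429). As a result the makeup of the ligand FPKM as listed differed. Wnt4 and Wnt10a made up 82.9 to 87.6% of its sum in adult LG, 18.4 to 25.2% at E17.5 and 24.2 to 26.2% at E19.5. The summed ligand level itself was 71.5 to 77.3 FPKM at E17.5, 62.9 to 78.6 at E19.5 and 17.9 to 48.8 in adult LG.

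**Figure D2:**
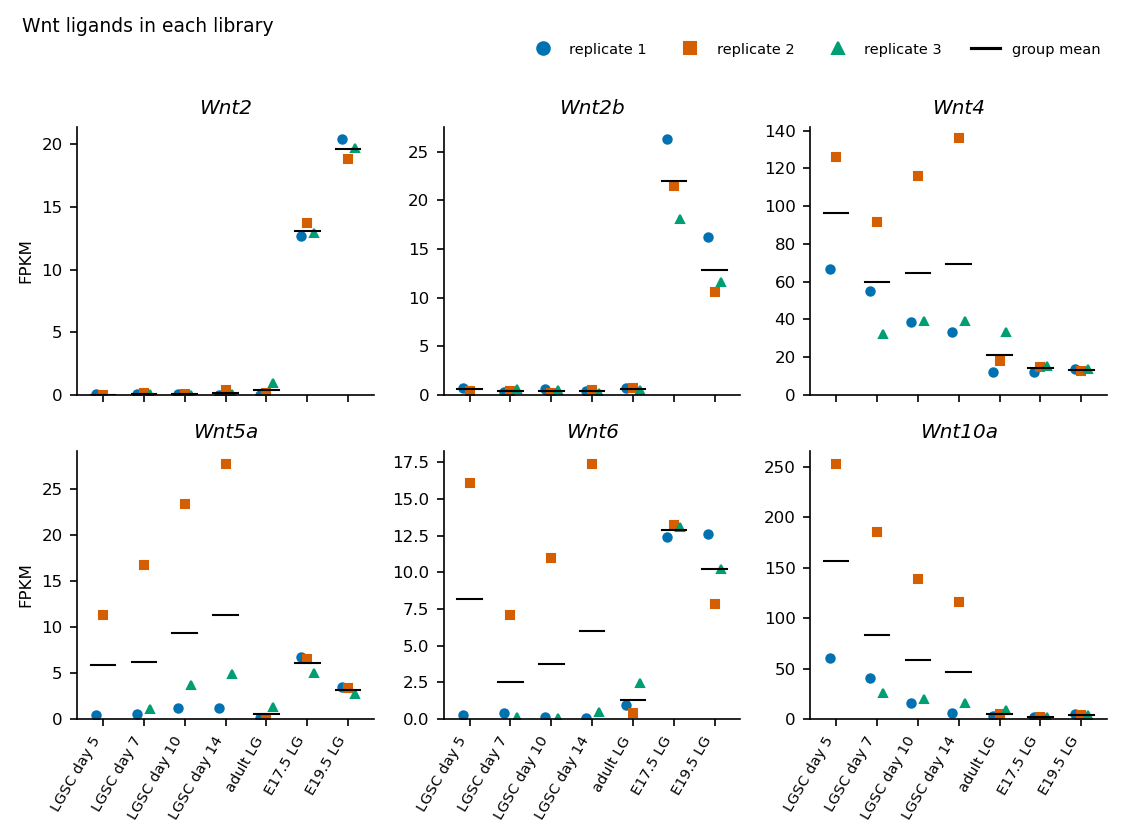
FPKM of the 6 Wnt ligands with a group mean of at least 5 FPKM, on linear axes that start at 0, with a point for each library, marked by replicate number, and a bar at each group mean. Wnt2, Wnt2b and Wnt6 are high in all 6 embryonic libraries, and the replicate 2 libraries of the LGSCs lie above the other LGSC libraries for Wnt5a, Wnt6 and Wnt10a.

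Among the receptors, 5 of the 10 tested rose and 2 fell at each embryonic stage. Fzd2, a receptor for Wnt5a among others, was the most abundant receptor of embryonic LG, with 152, 150 and 126 FPKM at E17.5 and 108, 107 and 101 at E19.5 against 3.17, 3.79 and 10.2 in adult LG (4.56 ± 0.33 and 4.13 ± 0.33, limma adjusted p 1.2e-05 and 2.3e-05). It made up 45.4 to 49.3% of the summed receptor FPKM at E17.5 and 5.07 to 10.7% in adult LG. Fzd9 was at 31.6, 34.6 and 32.4 FPKM at E17.5, 16.5, 21.4 and 23.8 at E19.5, and 2.53, 1.38 and 1.54 in adult LG, a mean 18.1-fold and 11.3-fold higher (3.61 ± 0.19 and 2.94 ± 0.19, limma adjusted p 2.3e-06 and 8.1e-06). Both receptors were thus well apart from every adult value.

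Fzd1, Fzd3 and Fzd7 rose by smaller amounts. Fzd1 was at 72.6, 69.9 and 69.1 FPKM at E17.5, 66.6, 73.8 and 61.6 at E19.5, and 23.5, 29.8 and 24.7 in adult LG, where with Fzd4 it led the receptors (1.41 ± 0.14 and 1.34 ± 0.14, limma adjusted p 6.0e-05 and 9.1e-05). Fzd3, a receptor of the planar polarity branch, was at 8.41, 8.79 and 9.41 FPKM at E17.5, 5.92, 5.92 and 5.56 at E19.5, and 1.49, 1.85 and 2.07 in adult LG (1.82 ± 0.13 and 1.28 ± 0.13, limma adjusted p 9.9e-06 and 7.3e-05). Fzd7, whose promoter is printed above, was at 21.8, 21.4 and 24 FPKM at E17.5, 26.9, 25.4 and 24.9 at E19.5, and 6.04, 9.53 and 16.1 in adult LG (1.11 ± 0.28 and 1.31 ± 0.28, limma adjusted p 0.00925 and 0.00434). None of these 3 receptors overlapped between embryonic and adult libraries, and the share of all genes without overlap was not computed.

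Fzd4, which also serves as the Norrin receptor of blood vessels, overlapped between the groups, with 17.7, 18.4 and 13 FPKM at E17.5, 17.7, 15.3 and 14.1 at E19.5, and 12.5 to 35 over the 3 adult libraries (limma adjusted p 0.509 and 0.434). Fzd10 and Fzd8 were lower in embryonic LG. Fzd10 was at 1.98, 1.88 and 1.58 FPKM at E17.5, 1.44, 1.23 and 1.06 at E19.5, and 10.6, 7.08 and 2.02 in adult LG (-1.23 ± 0.42 and -1.55 ± 0.42, limma adjusted p 0.0355 and 0.0131). Its E17.5 difference was -0.39 under scaling to recovered reads (0.163), and neither stage passed in the fit of all 20 libraries (0.365 and 0.247). Fzd8 was at 0.822 to 1.3 FPKM in the 6 embryonic libraries and 1.65 to 2.83 in adult LG (-0.58 ± 0.17 and -0.52 ± 0.17, limma adjusted p 0.021 and 0.0316). The difference in Fzd8 was 0.01 at both stages once values were divided by the recovered reads of their library. Lrp5 and Lrp6 were tested at means under 1 FPKM, with no call at either stage (limma adjusted p 0.516 and 0.727 at E17.5).

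The antagonists showed the widest differences, with 5 of the 6 tested higher and 1 lower at each stage. Sfrp2, a Wnt-binding protein of fibroblasts, was at 362, 331 and 219 FPKM at E17.5, 114, 89.4 and 107 at E19.5, and 1.93, 5.71 and 8.34 in adult LG, a mean 57-fold higher at E17.5 and 19.3-fold higher at E19.5 (5.71 ± 0.40 and 4.19 ± 0.40, limma adjusted p 9.3e-06 and 5.6e-05). Sfrp1 was the most abundant antagonist of embryonic LG, at 350, 365 and 440 FPKM at E17.5 and 409, 408 and 402 at E19.5, against 14.1, 18.9 and 37.8 in adult LG (4.08 ± 0.31 and 4.17 ± 0.31, limma adjusted p 1.5e-05 at both stages). Dkk2 was at 93.4, 91.8 and 67.1 FPKM at E17.5, 64.5, 54.9 and 60.4 at E19.5, and 2.13, 1.87 and 2.58 in adult LG (4.73 ± 0.17 and 4.26 ± 0.17, limma adjusted p 3.3e-07 and 6.1e-07). Summed antagonist FPKM was 734 to 812 at E17.5 and 91.2 to 187 in adult LG.

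Sfrp4 and Frzb rose from low adult levels. Sfrp4 was at 1.94, 2.83 and 2.39 FPKM at E17.5, 8.21, 4.05 and 5.37 at E19.5, and 0.298, 0.83 and 0.345 in adult LG (1.19 ± 0.24 and 2.18 ± 0.24, limma adjusted p 0.00331 and 1.4e-04). Frzb, a regulator of growing cartilage, was at 3.63 to 4.33 FPKM at E17.5 and 2.03 to 2.58 at E19.5 against 0 to 0.243 in adult LG (2.17 ± 0.14 and 1.59 ± 0.14, limma adjusted p 6.5e-06 and 3.9e-05). Sfrp5 ran the other way. It was at 168, 121 and 41.3 FPKM in adult LG, at 0.338, 0.655 and 0.592 at E17.5, and 0.843, 0.937 and 0.402 at E19.5 (-5.97 ± 0.44 at E17.5 and -5.80 ± 0.44 at E19.5, limma adjusted p 1.4e-05 and 1.8e-05). Sfrp5 made up 45.2 to 90% of the summed antagonist FPKM of adult LG, while Sfrp1 and Sfrp2 led in embryonic LG with 43.1 to 60% and 29.9 to 44.6% at E17.5. Its adult mean of 110 FPKM was 49.1 when values were scaled to recovered reads, still far above the embryonic means of 0.547 and 0.706 on that scale.

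Wls was at 13.6, 12.6 and 16.9 FPKM at E17.5, 19.4, 21.4 and 22.4 at E19.5, and 7.07, 10 and 14.4 in adult LG. It was higher than in adult LG at E19.5, where the groups did not overlap (0.99 ± 0.23, limma adjusted p 0.00695), and did not pass the threshold at E17.5 (0.46 ± 0.23, limma adjusted p 0.127). Under scaling to recovered reads it was called higher at E17.5 too (1.32 ± 0.43, 0.0254).

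**Figure D3:**
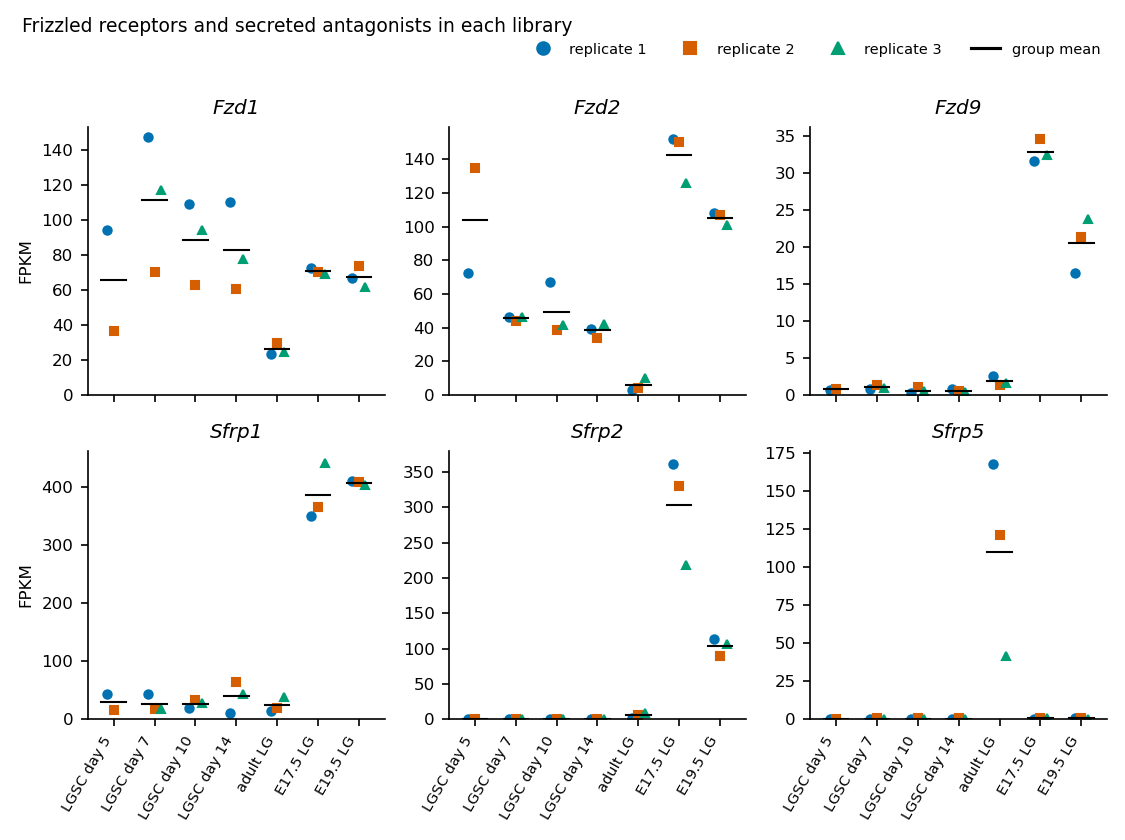
FPKM of 3 Frizzled receptors (Fzd1, Fzd2 and Fzd9) and 3 antagonists (Sfrp1, Sfrp2 and Sfrp5) on linear axes that start at 0, with a point for each library, marked by replicate number, and a bar at each group mean. Fzd1, Fzd2, Fzd9, Sfrp1 and Sfrp2 are higher in the 6 embryonic libraries than in the 3 adult libraries, and Sfrp5 exceeds 1 FPKM in the adult libraries only.

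**Figure D4:**
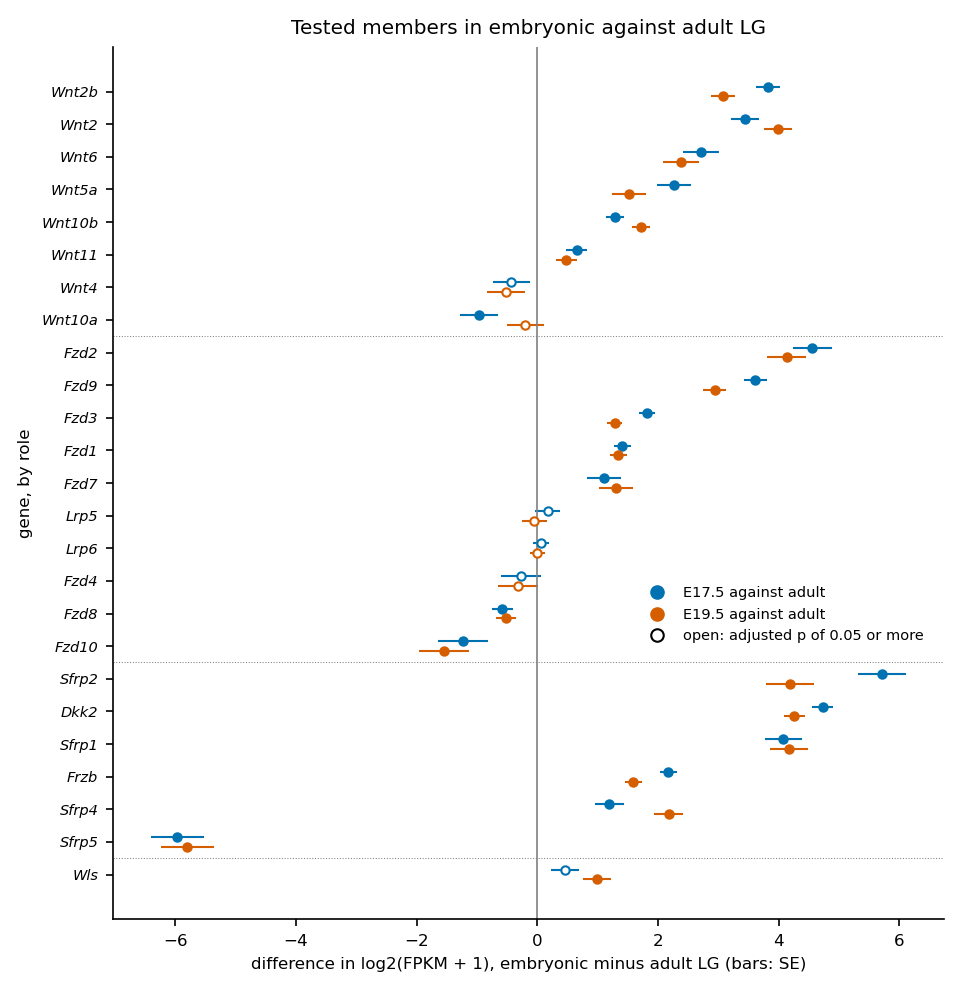
Difference of each tested member from adult LG on the log2(FPKM + 1) scale, at E17.5 and at E19.5, with bars of 1 SE; open points had an adjusted p of 0.05 or more. At E17.5 the points range from -5.97 for Sfrp5 to 5.71 for Sfrp2.

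Of the 8 mesenchymal markers, 7 were also called higher at E17.5 and all 8 at E19.5, beside 29.1% and 30.3% of all genes. Markers of blood vessels summed to 105 to 174 FPKM in embryonic LG and 34.8 to 101 in adult LG, and those of nerve and Schwann cells to 32.4 to 51.1 and 5.21 to 19.2. Sfrp5 was lower at both stages, and so were the 4 tested acinar markers, of 6 listed, beside 24.9% and 23.9% of all genes. The part of cell makeup in these differences was not tested, and in bulk samples fewer cells of a type and less RNA per cell cannot be told apart. Scaling to recovered reads moved the median difference of all genes to 0.64 at E17.5 and 0.58 at E19.5, and 81.5% and 81.4% of called genes were then higher, beside 53.8% and 55.9%. Under that scaling 17 members were higher at each stage, with 1 lower at E17.5 and 2 lower at E19.5.

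A few calls depended on single libraries. At E17.5, Wnt10a lost its call without adult replicate 2 (limma adjusted p 0.069) and without E17.5 replicate 1, 2 or 3 (0.0817, 0.0768 and 0.0504). Fzd10 lost its call at E17.5 in 5 of the 6 such fits, all but the one without adult replicate 3 (limma adjusted p 0.0736 to 0.103). Fzd8 lost it at E17.5 without adult replicate 2 or E17.5 replicate 1 or 3 (0.059, 0.0556 and 0.0761). At E19.5, Fzd8 and Wnt11 lost theirs without adult replicate 2 (0.0905 and 0.14) or without any one E19.5 library (0.0652 to 0.0967 and 0.0627 to 0.137). Conversely Wnt4 was called lower at both stages without adult replicate 1 (0.0399 and 0.0254), and without adult replicate 3 Wls and Lrp5 were called higher at E17.5 (0.00787 and 0.0443).

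In the rest of the pathway, the genes of 4 fixed lists were read in the same way. Beside their counts, 29.1% of all genes were called higher and 24.9% lower at E17.5, and 30.3% and 23.9% at E19.5. The counts describe the genes that passed the filter only. Of 9 alternative receptors and co-receptor modulators, 7 were tested, and 6 rose and 1 fell at each stage. Ror2, the receptor tyrosine kinase that binds Wnt5a, had a mean of 80.4 FPKM at E17.5 and 49.0 at E19.5 against 2.44 in adult LG (4.61 ± 0.22 and 3.91 ± 0.22, limma adjusted p 1.2e-06 and 3.4e-06). Rnf43, a ligase that removes Frizzled from the surface, was the one that fell, with 14.0 and 16.5 against 28.6 FPKM (-0.95 ± 0.24 and -0.71 ± 0.24, limma adjusted p 0.00879 and 0.0312). Of 18 intracellular genes 7 were tested; 3 rose and 2 fell at E17.5, and 2 rose and 3 fell at E19.5. Pygo1, a partner of beta-catenin in the nucleus, rose most (2.77 ± 0.15 and 2.52 ± 0.15, limma adjusted p 2.3e-06 and 4.7e-06), and Dvl1, which relays the signal from Frizzled, fell most (-1.14 ± 0.16 and -1.15 ± 0.16, limma adjusted p 4.1e-04 and 4.2e-04).

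All 4 tested target and feedback genes, of 11 listed, were called higher at both stages, and the rest of that list could not be tested. The largest rise was that of Dact1, a binding partner of Dishevelled, at E17.5 (26.9 against 1.32 FPKM, 3.64 ± 0.27, limma adjusted p 1.4e-05) and of Sostdc1, a secreted inhibitor of Wnt and BMP signals, at E19.5 (45.7 against 2.40 FPKM, 3.87 ± 0.31, limma adjusted p 2.2e-05). Both tested planar polarity genes, of 8 listed, also rose, Vangl1 the more (1.74 ± 0.16 and 1.76 ± 0.16, limma adjusted p 4.0e-05 and 4.3e-05). Axin2, the feedback gene most used as a readout of beta-catenin signalling, stayed at or under 0.743 FPKM in all 20 libraries, and Lef1 at or under 1.19 FPKM. Neither passed the filter in any comparison, so these genes could not be tested in these values. Of the 46 pathway genes, 22 were under 1 FPKM in all 20 libraries, and 13 of these 22 were at 5 FPKM or more in the passage 10 library.

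Between the embryonic stages no member was called at an adjusted p under 0.05, and 1.74% of all genes were (323 of 18578). At an unadjusted p under 0.05 there were 11 of the 25 members and 2841 of all genes. The widest difference was that of Sfrp2, whose mean was 103 FPKM at E19.5 against 304 at E17.5 without overlap (-1.52 ± 0.40, limma adjusted p 0.108). Sfrp4 went from 1.94 to 2.83 FPKM at E17.5 to 4.05 to 8.21 at E19.5, also without overlap (0.98, limma adjusted p 0.0943). The median difference was -0.09 over the 25 tested members and 0.02 over all genes. Fitted with all 20 libraries, 4 members passed: Sfrp2, Wnt2b and Frzb lower at E19.5 and Sfrp4 higher (limma adjusted p 0.00843, 0.039, 0.00637 and 0.00556). No gene of the 4 pathway lists was called.

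The next comparison set LGSCs at day 7 against the adult gland from which such cells are grown. The ligand Wnt10a, the receptors Fzd1 and Fzd2, and Wls were higher in LGSCs, and Fzd4, Sfrp2 and Sfrp5 were lower. Of the 20 members tested, 4 were called higher, beside 14.2% of all genes, and 3 lower, beside 21.1%. Their median log2 difference was 0.37, and that of all genes -0.08. Here too the counts describe the tested members only, since Sfrp2 and Sfrp5 passed the filter only through adult LG, where they are high.

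Wnt10a was at 40.5, 185 and 25.7 FPKM at day 7, each above the adult range of 2.69 to 8.71, and its mean was 15.1-fold higher (3.28 ± 0.75, limma adjusted p 0.017). The spread between the day 7 libraries was itself wide, and the call was lost without adult replicate 1 or 2 (limma adjusted p 0.0559 and 0.0549). Wnt4 was at 55, 91.4 and 32.3 FPKM against 12.2 to 33.5 in adult LG and did not pass the threshold (1.44 ± 0.49, limma adjusted p 0.0614). It was called higher without adult replicate 3 (limma adjusted p 0.0262) and under scaling to recovered reads (0.0233). So it was by limma-voom, which kept the deposited scaling (0.0491), and in the limma fit of all 20 libraries (0.0367). Under scaling to recovered reads the median difference of all genes was 0.60, and 75.8% of called genes were higher beside 40.2%. On that scale 6 members were called higher and 2 lower. Together Wnt4 and Wnt10a held 88.5 to 97.1% of the summed ligand FPKM at day 7, as listed.

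Fzd1 was at 147, 69.9 and 117 FPKM at day 7 against 23.5 to 29.8 in adult LG (2.0 ± 0.31, limma adjusted p 0.00422), and it led the receptors with 44.6 to 65.1% of their sum. Fzd2 was at 46.3, 43.9 and 46.2 FPKM against 3.17 to 10.2 (2.94 ± 0.39, limma adjusted p 0.00239). Fzd4 was the receptor that fell, with 3.83, 2.25 and 3.42 FPKM against 12.5 to 35 (-2.34 ± 0.39, limma adjusted p 0.00558), and it did not pass under scaling to recovered reads (-1.34 ± 0.65, 0.124). Wls, at 28.5, 26.2 and 22.3 FPKM against 7.07 to 14.4, was called higher (1.26 ± 0.28, limma adjusted p 0.0161) but not without day 7 replicate 1 or 2 or adult replicate 2 (0.0649, 0.0526 and 0.0553). Fzd7 was at 20.1, 12.4 and 19.1 FPKM and was called higher only without adult replicate 3 (limma adjusted p 0.0352, beside 0.176 with it).

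Sfrp5 was at 0 to 0.471 FPKM at day 7 against 41.3 to 168 in adult LG (-6.39 ± 0.52, limma adjusted p 4.7e-04). Sfrp2 was at 0.0502, 0.119 and 0 FPKM against 1.93 to 8.34 (-2.43 ± 0.42, limma adjusted p 0.00641). Both were therefore near 0 in the spheres, as were the fibroblast markers, with the acinar markers at 0.0371 to 0.733 FPKM in sum, whose part was not tested. Sfrp1 overlapped with adult LG, at 43.3, 17.2 and 17.7 FPKM (0.12, limma adjusted p 0.865). Dkk2 was at 6.59, 0.552 and 6.72 FPKM. Without replicate 2 on day 7, Dkk2 was called higher than in adult LG (1.27 ± 0.22, limma adjusted p 0.0145), beside 0.50 and an adjusted p of 0.565 with it.

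Against E17.5 LG, the ligands Wnt2 and Wnt2b, the receptors Fzd2, Fzd3, Fzd4 and Fzd9, and the antagonists led by Sfrp2 were lower in the spheres, and Wnt10a, Wnt4, Fzd8 and Wls were higher. Of the 24 members tested, 4 were called higher, beside 18.1% of all genes, and 13 lower, beside 29.6%. The median log2 difference was -1.50 over these members and -0.10 over all genes. All 5 tested antagonists, of 10 listed, were among the 13. Of these, Sfrp2, Sfrp4 and Frzb passed the filter only through E17.5 LG, where they are high. The counts therefore describe the tested members only. The E17.5 and adult comparisons use the same day 7 libraries.

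Wnt10a had a mean of 83.7 ± 87.9 FPKM (SD, n = 3) at day 7 against 2.11 ± 0.325 at E17.5 (4.25 ± 0.69, limma adjusted p 0.00325). Wnt4 had 59.6 ± 29.8 against 14.3 ± 1.72 FPKM (1.87 ± 0.36, limma adjusted p 0.00646). Fzd8 was at 3.62, 3.29 and 3.34 FPKM against 1.08, 1.3 and 0.822 (1.10 ± 0.13, limma adjusted p 8.4e-04). These members were above every E17.5 library. Among those that were lower, Wnt2 was at 0.0479, 0.113 and 0.0495 FPKM and Wnt2b at 0.283, 0.426 and 0.585, far under the E17.5 values given above (-3.72 ± 0.10 and -3.99 ± 0.17, limma adjusted p 3.0e-06 and 1.3e-05). Wnt10b was at 0.0925 to 0.986 FPKM (-1.37 ± 0.23, limma adjusted p 0.00367).

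The ligands Wnt5a and Wnt6 turned on replicate 2. Wnt6 was at 0.394, 7.06 and 0.153 FPKM at day 7 (-2.56 ± 0.72, limma adjusted p 0.028). It lost its call without day 7 replicate 1 or 3 (0.081 and 0.0762) or without any one E17.5 library (0.0791 to 0.0852), and without replicate 2 the difference was -3.45 (2.7e-05). Wnt5a was at 0.621, 16.8 and 1.1 FPKM, on either side of the E17.5 values (-0.85, limma adjusted p 0.464), and was called lower without replicate 2 (-1.94 ± 0.18, 6.3e-04). Fzd1 was called higher without it (0.89 ± 0.11, limma adjusted p 0.00159, beside 0.112 with it).

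Fzd9 was at 0.801, 1.39 and 0.877 FPKM at day 7 against 31.6 to 34.6 at E17.5 (-4.07 ± 0.14, limma adjusted p 5.8e-06), Fzd3 at 1.31 to 2.28 (-1.90 ± 0.16, 2.2e-04) and Fzd2 at 43.9 to 46.3 against 126 to 152 (-1.63 ± 0.10, 5.6e-05). Fzd4 was lower than at E17.5 as it was against adult LG (-2.07 ± 0.20, limma adjusted p 4.1e-04). Of the antagonists, Sfrp1 and Sfrp2 were lower (-3.96 ± 0.35 and -8.14 ± 0.20, limma adjusted p 2.8e-04 and 2.1e-06), and Dkk2 was lower in all 3 libraries (-4.23 ± 0.63, 0.00237). Sfrp4 and Frzb were listed at 0 in the 3 day 7 libraries and were called lower (limma adjusted p 1.4e-04 and 2.2e-05). Fibroblast and mesenchyme markers summed to 0.565 to 1.47 FPKM at day 7 against 4920 to 5780 at E17.5 and endothelial markers to 0.0229 to 0.201 against 105 to 130, and their part in these differences was not tested.

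In the pathway lists, 4 of 6 tested alternative receptors and modulators were higher at day 7 than in adult LG and 2 lower, with Ror2 at 56.2, 44.3 and 45.6 FPKM (3.89 ± 0.28, limma adjusted p 3.3e-04) and Rnf43 at a mean of 9.11 (-1.62 ± 0.40, 0.0225). Of 7 tested intracellular genes 1 was higher and 1 lower, Ctnnb1, which encodes beta-catenin, at 137 against 71.0 FPKM (0.92 ± 0.25, limma adjusted p 0.0296) and Dvl1 (-1.01 ± 0.21, 0.0112). Of 5 tested target and feedback genes 1 was higher and 2 lower. Sostdc1 rose to 127, 449 and 42.0 FPKM against 1.06 to 4.05 in adult LG (5.41 ± 0.84, limma adjusted p 0.00416). Tnfrsf19 fell most, to 0.16, 4.72 and 0.259 FPKM, a mean of 1.71 against 19.7 (-3.29 ± 0.65, limma adjusted p 0.0102). Both genes were highest in replicate 2. Both tested polarity genes were higher, Vangl1 the more (2.73 ± 0.22, limma adjusted p 4.4e-04). Over all genes 14.2% were called higher and 21.1% lower in this comparison.

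Against E17.5 LG, 2 of 7 tested alternative receptors and modulators were higher and 3 lower, with Ptk7, a polarity co-receptor, at 301 against 140 FPKM (1.10 ± 0.08, limma adjusted p 1.4e-04) and Ror1 at 1.28 against 18.5 (-3.10 ± 0.14, 1.8e-05). Of the 7 tested intracellular genes 2 were higher and 2 lower, Dvl3 with the largest rise (0.47 ± 0.13, limma adjusted p 0.0259), while Pygo1, with a mean of 9.22 FPKM at E17.5, was listed at 0 in the 3 day 7 libraries (4.1e-06). Of the 6 tested target and feedback genes 1 was higher and 3 lower, Sostdc1 rising most (2.68 ± 0.80, 0.0343) and Tnfrsf19 falling most (-4.73 ± 0.61, 0.00125). Both tested polarity genes were higher, and Vangl1 had the larger rise (0.99 ± 0.11, limma adjusted p 7.2e-04). The shares of all genes here were 18.1% called higher and 29.6% lower.

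Over the culture days the question was whether members changed as the spheres grew from day 5 to day 14. In a fit of the slope per day, 19 members were tested and none was called, beside 2.14% of all genes (334 of 15584), and 1 member, Fzd2, was at an unadjusted p under 0.05, beside 2965 of all genes. Same-numbered libraries of different days varied together, so the slope was also fitted with the replicate as a block. It then called 4 members, 2 higher and 2 lower, beside 2.12% and 2.91% of all genes. Wnt10a and Fzd10 fell, and Dkk2 and Wnt5a rose.

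Wnt10a was at 60.8 and 253 FPKM on day 5, 40.5, 185 and 25.7 on day 7, 15.8, 139 and 19.6 on day 10, and 6.23, 116 and 16.5 on day 14, in the order of replicates. In each replicate the last day was below the first. Its slope was -0.236 ± 0.124 per day without the block (limma adjusted p 0.328), -0.204 ± 0.040 with it (0.0217), and -0.253 ± 0.048 without the replicate 2 libraries (0.0439). Fzd10 was at 3.47 and 31.1 FPKM on day 5, 1.46, 20.5 and 1.89 on day 7, 0.869, 18.3 and 1.03 on day 10, and 0.38, 14.5 and 0.815 on day 14. The day 14 value was the lowest of each replicate, with slopes of -0.166 ± 0.137 without and -0.130 ± 0.023 with the block (limma adjusted p 0.543 and 0.014). Without the replicate 2 libraries the slope was -0.142 ± 0.029 and did not pass (0.0578).

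Dkk2 was at 4.13 and 0.637 FPKM on day 5, 6.59, 0.552 and 6.72 on day 7, 21.7, 2.21 and 7.96 on day 10, and 58.8, 2.67 and 7.86 on day 14. Most of the rise lay in replicate 1, and all 3 replicates ended above their first value. The slope was 0.231 ± 0.113 without and 0.226 ± 0.052 with the block (limma adjusted p 0.297 and 0.0384), and 0.237 ± 0.091 without the replicate 2 libraries (0.248). Wnt5a was at 0.436 and 11.3 FPKM on day 5, 0.621, 16.8 and 1.1 on day 7, 1.18, 23.4 and 3.69 on day 10, and 1.22, 27.8 and 4.89 on day 14. It was higher at day 14 than at its first day in each replicate, with slopes of 0.105 ± 0.136 and 0.125 ± 0.026 (limma adjusted p 0.716 and 0.0259). Without the replicate 2 libraries it was 0.148 ± 0.059 and did not pass (0.262).

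**Figure D5:**
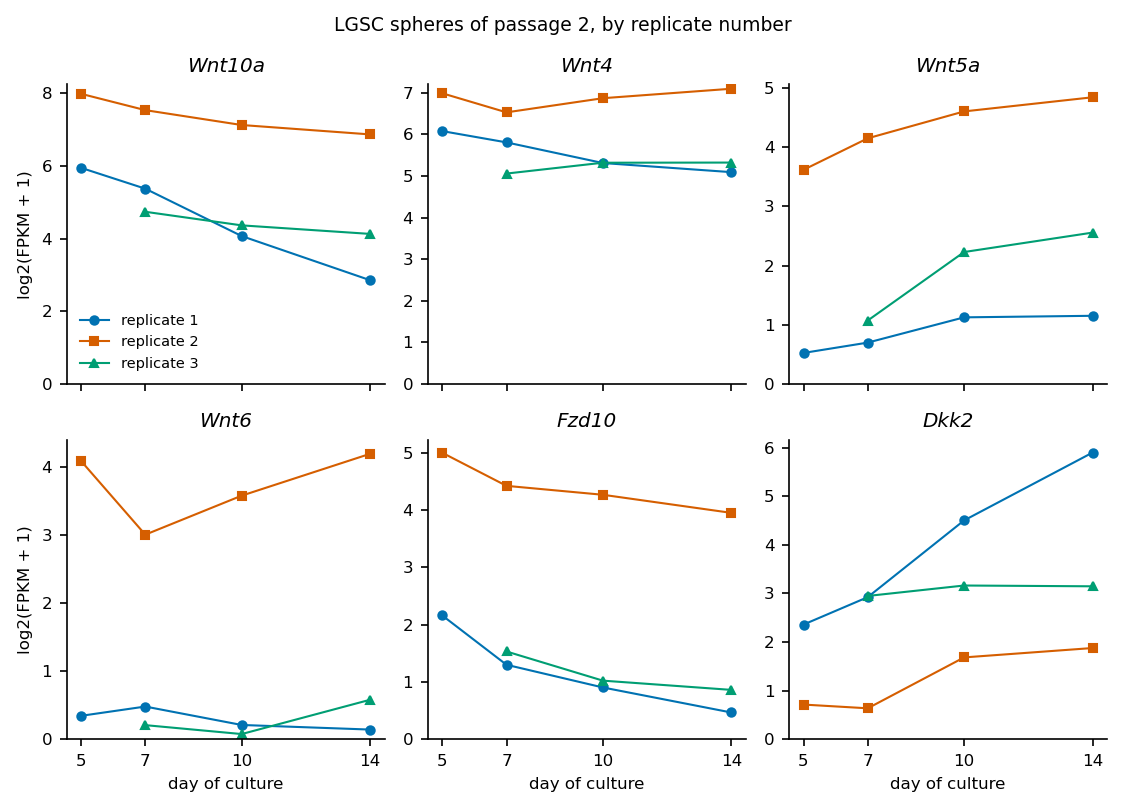
Level of Wnt10a, Wnt4, Wnt5a, Wnt6, Fzd10 and Dkk2 as log2(FPKM + 1) against culture day (5, 7, 10 and 14), with 1 line for each replicate number of the passage 2 LGSCs and no day 5 point for replicate 3. Lines fall for Wnt10a and Fzd10, those of Dkk2 and Wnt5a end above their first point, and replicate 2 lies above the others in every panel except Dkk2, where it is lowest.

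The other members tested in the spheres were called in neither of these slope fits. Wnt4 was at 66.6 and 126 FPKM on day 5, 55, 91.4 and 32.3 on day 7, 38.7, 116 and 38.9 on day 10, and 33.1, 136 and 39.0 on day 14. Fzd1 was at 94.1 and 36.7 FPKM on day 5, 109, 62.8 and 93.9 on day 10, and 110, 60.6 and 77.6 on day 14. Fzd2 was at 72.6 and 135 FPKM on day 5, 67.3, 38.7 and 41.5 on day 10, and 39.2, 33.6 and 42.3 on day 14, with a slope of -0.107 ± 0.037 (limma adjusted p 0.154), and of -0.059 ± 0.031 without the replicate 2 libraries (0.376). Replicate 2 was the highest library of every day for Wnt4 and the lowest of every day for Fzd1. Sfrp1 was at 43.4 and 15.5 FPKM on day 5, 19.6, 33.1 and 27.1 on day 10, and 11, 63.6 and 43.5 on day 14, the lowest of its 4 values in replicate 1 and the highest in replicate 2. Its slope was 0.038 ± 0.065 (limma adjusted p 0.789) and turned to -0.080 ± 0.071 without the replicate 2 libraries (0.619). For the other members tested in both fits the slope without those libraries lay between -0.069 for Wnt4 and 0.075 for Fzd4, and none passed.

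The receptors Fzd3, Fzd4, Fzd7 and Fzd9 and the carrier Wls were not called over the days in either slope fit. Fzd7 was at 26.8 and 20.5 FPKM on day 5, 20.1, 12.4 and 19.1 on day 7, 26.4, 12.5 and 25.5 on day 10, and 14.2, 14.2 and 30.5 on day 14. Wls was at 28.6 and 41.9 FPKM on day 5, 28.5, 26.2 and 22.3 on day 7, 26.1, 28.3 and 30.9 on day 10, and 29.6, 30.4 and 30.8 on day 14. On day 7 Wls reached 28.5 FPKM, just under its lowest day 5 value of 28.6, and Fzd7 reached 20.1, just under 20.5. Deposited values were 0.846 times those scaled to recovered reads in day 7 replicate 1 and 0.944 times in day 5 replicate 1. The order of such close values therefore depends on the scaling. The slopes were -0.001 ± 0.021 per day for Wls and -0.015 ± 0.039 for Fzd7 (limma adjusted p 0.98 and 0.87). Fzd4 was at 3.62 and 2.13 FPKM on day 5, 3.83, 2.25 and 3.42 on day 7, 6.17, 1.85 and 5.07 on day 10, and 5.98, 2.68 and 5.75 on day 14, with replicate 2 the lowest each day. Fzd3 was at 1.21 and 1.47 FPKM on day 5, 1.46, 1.31 and 2.28 on day 7, 1.02, 1.18 and 2.19 on day 10, and 1.67, 1.17 and 1.39 on day 14. Fzd9 was at 0.718 and 0.772, then at 0.801, 1.39 and 0.877, then at 0.197, 1.02 and 0.504, and on day 14 at 0.783, 0.49 and 0.367 FPKM. Neither gene approached its embryonic level.

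The ligands Wnt2 and Wnt2b and the antagonists Sfrp2, Sfrp4, Sfrp5 and Frzb stayed under 1 FPKM in the spheres on every day, and Wnt6 did so outside replicate 2. Wnt6 was at 0.268 and 16.1 FPKM on day 5, 0.155, 11 and 0.0527 on day 10, and 0.102, 17.4 and 0.494 on day 14. Wnt2b was at 0.756 and 0.421 FPKM on day 5, 0.619, 0.185 and 0.523 on day 10, and 0.347, 0.535 and 0.229 on day 14. Wnt2 was at 0.0521 and 0 FPKM on day 5, 0.0501, 0.0576 and 0 on day 10, and 0, 0.349 and 0.0534 on day 14. Both were thus under every embryonic library. Sfrp2 was at 0 and 0.137 FPKM on day 5, 0, 0 and 0.107 on day 10, and 0.0521, 0.104 and 0.112 on day 14. Sfrp5 stayed at or under 0.71 FPKM in all 11 libraries, the value of a day 14 library. Sfrp4 and Frzb were listed at 0 in 10 of the 11, with 0.027 and 0.0347 FPKM in the remaining one.

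Day 14 against day 7 alone gave no call for any of the 19 members tested by limma, and 0% of all genes (0 of 15744) were called, with 1557 genes but no member at an unadjusted p under 0.05. By limma-voom the count over all genes was also 0, and with the replicate block added it was 116 of 12112, none of them a member. Of the pathway lists, 1 target gene was called in the slope over days, beside 2.14% of all genes. This was Sp5, a direct target of beta-catenin. It was at 0.392 and 0 FPKM on day 5, 1.08, 0.0609 and 0.266 on day 7, 2.21, 0.618 and 1.6 on day 10, and 5.13, 1.77 and 6.07 on day 14 (0.239 ± 0.042 per day, limma adjusted p 0.0224). Each replicate was highest on day 14, and none exceeded 0.392 FPKM on its first day. Notum, a secreted enzyme that removes the lipid of Wnts, reached 2.33, 6.27, 14.9 and 19.1 FPKM on days 5, 7, 10 and 14 in replicate 2 and at most 0.538 in the other LGSC libraries. It is named after its values were seen.

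The passage 10 library is 1 library with its own list of genes, and its values stand beside those of passage 2 at day 7 with no test. Of the 43 members, 15 were at 5 FPKM or more. Wnt10a, at 37.0 FPKM, lay within the passage 2 range of 25.7 to 185 at day 7. Wnt4 at 24.9 and Sfrp1 at 15.6 FPKM were below their lowest day 7 values of 32.3 and 17.2. Fzd7 at 27.4 and Wls at 33.8 FPKM were above their highest of 20.1 and 28.5. Fzd1 at 12.3 and Fzd2 at 6.06 FPKM were below the day 7 values of 69.9 to 147 and 43.9 to 46.3. Sfrp2, Sfrp4, Sfrp5, Frzb and Dkk2 were at 0 to 0.155 FPKM. The epithelial genes Krt14 and Krt5 were at 7070 and 4930 FPKM there, while no passage 2 library exceeded 17.8 and 5.52.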

How the data were processed

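RNA from LG and LGSCs was selected with poly-T beads, made into libraries with a NEBNext Ultra kit and sequenced as paired reads. CASAVA 1.8, HISAT2 2.0.5 and featureCounts 1.5.0-p3 and the build NCBIM37 are named in the submitters' processing notes, and the step from counts to FPKM is not given in the sources used here. FPKM values were deposited by the authors, 1 table a library. Of 24 samples listed, 21 were analysed and 20 entered tests; day 5 replicate 3 and passages 6 and 20 were not analysed here. There were 0 other columns of per-sample values.

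Genes were matched by Ensembl identifier to GENCODE M21 (GRCm38) and RefSeq, whose coordinates are printed; this is not the build named above. Dividing FPKM by its smallest step and using annotated length gave reads that were whole within 0.01 for 92.6 to 93.6% of genes. Tests used limma 3.58.1 (R 4.3.3; lmFit, eBayes with trend) on log2(FPKM + 1), with genes of mean 0.5 FPKM or more in the libraries of the fit, Benjamini-Hochberg adjustment over all genes tested and a threshold of 0.05. The 9 tissue libraries shared 1 fit; the other comparisons used their own groups. Python 3.11.15, pandas 2.3.3, numpy 2.4.6 and matplotlib 3.10.9 did the rest. The fits were run on simulated data with a common dispersion of 0.05 and independent libraries. Those data held neither a replicate that stands apart nor uneven scaling, so they do not cover these features.

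Alternatives were a pseudocount of 0.1, no filter, scaling to recovered reads, limma-voom on those reads and all 20 libraries in 1 fit. Each library was also left out in turn, and a replicate block was added. The slope was also fitted on log2 of the day and on days 7, 10 and 14 only. The limma-voom fits took the deposited scaling as library size, so they could not check that scaling. The fits without replicate 2 and limma-voom with the block were chosen after seeing the data. In LGSCs, the deviations of same-numbered libraries from their day's mean correlated in all 15 pairs (r 0.26 to 0.72, across genes). For different numbers the mean r was -0.22 and the highest 0.44, above the lowest same-number value. Numbers were taken as pairing days, but these correlations were not computed without replicate 2, which stood apart. In the other comparisons r was -0.08 to 0.06.

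Members, lists and tests were chosen with earlier results of these data known. Every member is accounted for, with each library's value where a group mean reached 5 FPKM or, in less detail, where it passed the threshold; of the pathway lists, the largest rise and fall past the threshold are named, plus Axin2 and Lef1. Wisp1 was not matched, which left 46 of the 47 pathway genes.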

Additional observations from a re-analysis of the deposited data

Results flagged for a closer look

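The passage 10 library, which enters no comparison, held 8 of the 43 members at levels that none of the 20 passage 2 and tissue libraries approached. Fzd6 was at 57.1 FPKM there and at most 0.892 elsewhere, Dkk3 at 36.6 beside at most 0.0773, and Wnt7b at 20.6 beside at most 0.483. Lrp5 was at 17.2 FPKM beside at most 1.17, Porcn at 15.4 beside at most 0.426, Lrp6 at 11.7 beside at most 0.761, and Wnt9a at 9.49 beside at most 0.338. Fzd5 was at 3.17 FPKM and listed at 0 in all 20. They include both co-receptors and the enzyme that lipidates Wnts. The same held for 2310 of the 5333 genes with at least 10 FPKM in the passage 10 library, and for Mki67, listed at 0 in all 20, but not for Actb (479 FPKM, beside 114 to 624), so the difference is not particular to Wnt genes. The passage 10 values came with another gene list (52747 genes, 111 of them without an Ensembl identifier, beside 63862 and 11226). Its cause was not tested.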

How the results depend on the processing

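Counts of called members stayed within 1.5 times the reported count in all fits except these. For E19.5 against E17.5 LG, limma-voom called 1 member and the fit of all 20 libraries 4, beside 0. For the slope over culture days, the replicate block called 4, limma-voom with the block 5 (adding Wnt7a) and the fit without replicate 2 called 1, beside 0. Fzd8 turned from lower to a difference of 0.01 in both embryonic comparisons under scaling to recovered reads. With each library left out, called members ranged from 16 to 22 at E17.5 against adult LG, 18 to 22 at E19.5, 5 to 9 for LGSCs against adult LG, 16 to 19 against E17.5 LG, and 0 to 0 for the other comparisons. Over all genes, E19.5 against E17.5 LG called 323, and 162 with the smaller pseudocount, 186 under rescaling, 100 with the replicate block and 511 with all 20 libraries. The slope called 334, and 783 with the block, 82 without a filter, 1184 by limma-voom with the block, 0 on days 7, 10 and 14 only, and 11 to 384 with single libraries left out, lowest without day 5 replicate 1. Outside the culture days the replicate block in the limma fit of log2 FPKM cost the call of Wnt11 at E19.5 (adjusted p 0.0863), and limma-voom with the block that of Wnt6 in LGSCs against E17.5 LG (0.0703); replicate numbers did not pair those libraries. LGSCs against adult LG called 6238 genes, and 3770 without day 7 replicate 3 to 8135 without adult replicate 3; E19.5 against E17.5 LG called 50 to 197 with single libraries left out, and day 14 against day 7 called 50 with all 20 libraries and 116 by limma-voom with the block. Rescaling moved the share of higher genes among calls from 64.1 to 49.5% between embryonic stages and from 30.2 to 41.8% for the slope. The causes were not tested. Reads per library limit members with a few reads, such as Wnt11 in adult LG (0 to 7).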
